A study of Mus musculus with 18 samples.

Results

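Toll-like receptors are membrane proteins with which cells recognise molecules of microbes and of damaged cells. The family was followed here in a mouse study of direct reprogramming, in which cardiac fibroblasts are turned towards cardiomyocytes. The list held 10 receptor genes, of which 9 had a probe set that named that gene alone, among 19912 genes measured that way. The measured members were the surface receptors Tlr1, Tlr2, Tlr4 and Tlr6 and the endosomal receptors Tlr3, Tlr7, Tlr8, Tlr9 and Tlr13, each with 1 probe set. Tlr5 was not analysed here.

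RNA from cells of CD1 mice was hybridised to Affymetrix mouse Gene 1.0 ST arrays, 18 in all, with 3 biological replicates in each of 6 groups. The groups were GFP+ induced cardiomyocyte-like cells (iCMs) at 2 weeks and at 4 weeks, GFP- cells in which reprogramming had failed at 2 weeks and at 4 weeks, neonatal cardiomyocytes (CM) and neonatal cardiac fibroblasts (CF). GFP is the reporter by which reprogrammed cells are told from the others. The reprogramming factors and the promoter of the reporter are not given in the sources used here. Levels are log2 intensities per probe set. Levels of different genes cannot be compared, since each probe set binds with its own strength. A group mean below 6.16 log2 was taken as not above background, this being the lowest of the 18 arrays' own 25th percentiles, and a fold against such a mean is given as "at least". The receptors were compared between groups with limma, fitted to all genes on all arrays, and a gene was called at a Benjamini-Hochberg adjusted p under 0.05. The ± after a difference is its standard error from limma, and precision is limited by how few arrays there are.

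The cultures were checked against markers first, because macrophages carry most of these receptors. The 22 macrophage markers averaged 9.24 to 9.60 log2 on the arrays of 2-week iCMs and 8.91 to 9.05 on those of 4-week iCMs. They averaged 11.54 to 11.59 in 2-week GFP- cells, 11.53 to 11.64 in 4-week GFP- cells, 6.61 to 6.77 in CM and 11.24 to 11.48 in CF. The arrays labelled as fibroblasts thus carried macrophage markers at a high level beside their fibroblast markers (mean 10.70 log2). The CM arrays also carried fibroblast markers (mean 10.11 log2) beside cardiomyocyte markers (mean 13.19 log2). The means of B cell and of T and NK cell markers lay between 5.97 and 6.28 log2 in every group. In such bulk samples fewer cells of a type and less RNA per cell cannot be told apart.

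Each receptor has an outer domain of leucine-rich repeats and an inner TIR domain that recruits adaptor proteins. The surface receptors bind mainly lipids and lipoproteins of microbes, whereas the endosomal ones bind nucleic acids taken up by the cell. In the heart they are best known from resident macrophages, while Tlr4 is also known from fibroblasts and muscle cells. Signals run through the adaptor Myd88, or for Tlr3 and in part for Tlr4 through Ticam1, to NF-kB and interferon regulatory factors.

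Promoter letters are shown for Tlr13, Tlr8 and Tlr1, which were among the members with the largest differences between groups. The windows run from 250 bases before to 50 bases after a RefSeq start in GRCm38.p6, and capitals mark GAGGAA or its reverse complement, the core that the macrophage factor PU.1 (gene Spi1) is known to bind. The letters were chosen with the sequences in view.
Tlr13, chrX:106143025-106143324, plus strand: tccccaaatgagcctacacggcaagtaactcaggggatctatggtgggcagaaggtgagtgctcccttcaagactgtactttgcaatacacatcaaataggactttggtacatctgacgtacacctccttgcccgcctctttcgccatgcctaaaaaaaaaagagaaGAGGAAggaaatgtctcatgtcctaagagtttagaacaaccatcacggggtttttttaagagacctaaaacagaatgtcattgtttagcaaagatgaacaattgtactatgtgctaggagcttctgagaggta
Tlr8, chrX:167264280-167264579, minus strand: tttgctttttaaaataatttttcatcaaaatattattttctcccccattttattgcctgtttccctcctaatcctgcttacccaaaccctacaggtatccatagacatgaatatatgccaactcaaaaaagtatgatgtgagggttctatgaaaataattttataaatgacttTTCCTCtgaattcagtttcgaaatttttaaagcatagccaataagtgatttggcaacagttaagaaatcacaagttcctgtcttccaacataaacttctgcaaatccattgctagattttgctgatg
Tlr1, chr5:64933509-64933808, minus strand: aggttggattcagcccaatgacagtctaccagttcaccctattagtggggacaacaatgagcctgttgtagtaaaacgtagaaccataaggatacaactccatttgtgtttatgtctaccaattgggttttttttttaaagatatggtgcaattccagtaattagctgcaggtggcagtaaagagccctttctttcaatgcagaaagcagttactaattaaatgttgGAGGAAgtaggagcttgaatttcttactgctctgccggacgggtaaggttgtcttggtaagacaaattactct
The match began at position -83 in the Tlr13 window, -77 in the Tlr8 window and -23 in the Tlr1 window, counted from the start of transcription. RefSeq windows were matched for 7 of the 9 measured members (not Tlr4 and Tlr7), 9 windows in all, and 4 windows held the letters (Tlr9 beside the 3 shown). The Tlr9 window held 2 matches, while Tlr9 had the narrowest range of group means among the measured members (0.71 log2). A link between the letters and the levels was not tested. The window of a second Tlr1 start, chr5:64932650-64932949 on the minus strand, did not hold them. Among all 32851 windows, 28.3% held them on either strand. The other letters searched, also on both strands, were GAAA and GAAA with a pair of free bases between them (interferon response element), found in Tlr6 alone of the members and in 3.44% of all windows, and TGANTCA (AP-1), found in Tlr9 alone and in 7.81%. GGG and CC with 5 free bases between them (NF-kB letters) stood in Tlr2, Tlr3 and Tlr6, and in 50.8% of all windows. Matches of the 4 patterns to each other's letters were not removed. Tlr1 and Tlr6 are neighbours on chromosome 5, and Tlr7 and Tlr8 on the X chromosome.

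In GFP+ iCMs the receptors Tlr1, Tlr7, Tlr8 and Tlr13 were each lower than in CF by between 2.55 and 3.44 log2, whereas Tlr4 stayed near its CF level. Against CF, 7 of the 9 members were lower in 2-week iCMs and 8 of 9 in 4-week iCMs, and none was higher. Of all genes, 33.3% were called at 2 weeks (15.8% lower) and 29.5% at 4 weeks (15.2% lower). With a minimum of 1 log2 as well, 5 of 9 members passed in 4-week iCMs, where 7.74% of all genes did. The members' median difference was -1.11 log2 at 2 weeks and -1.75 log2 at 4 weeks. Macrophage markers moved in the same direction, with 21 of 22 lower at both times and median differences of -2.12 and -2.65 log2. Only Cd163, which lay at 6.06 to 6.61 log2 on all arrays, was not called among them. The part of macrophage content in these differences was not tested.

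**Figure D1:**
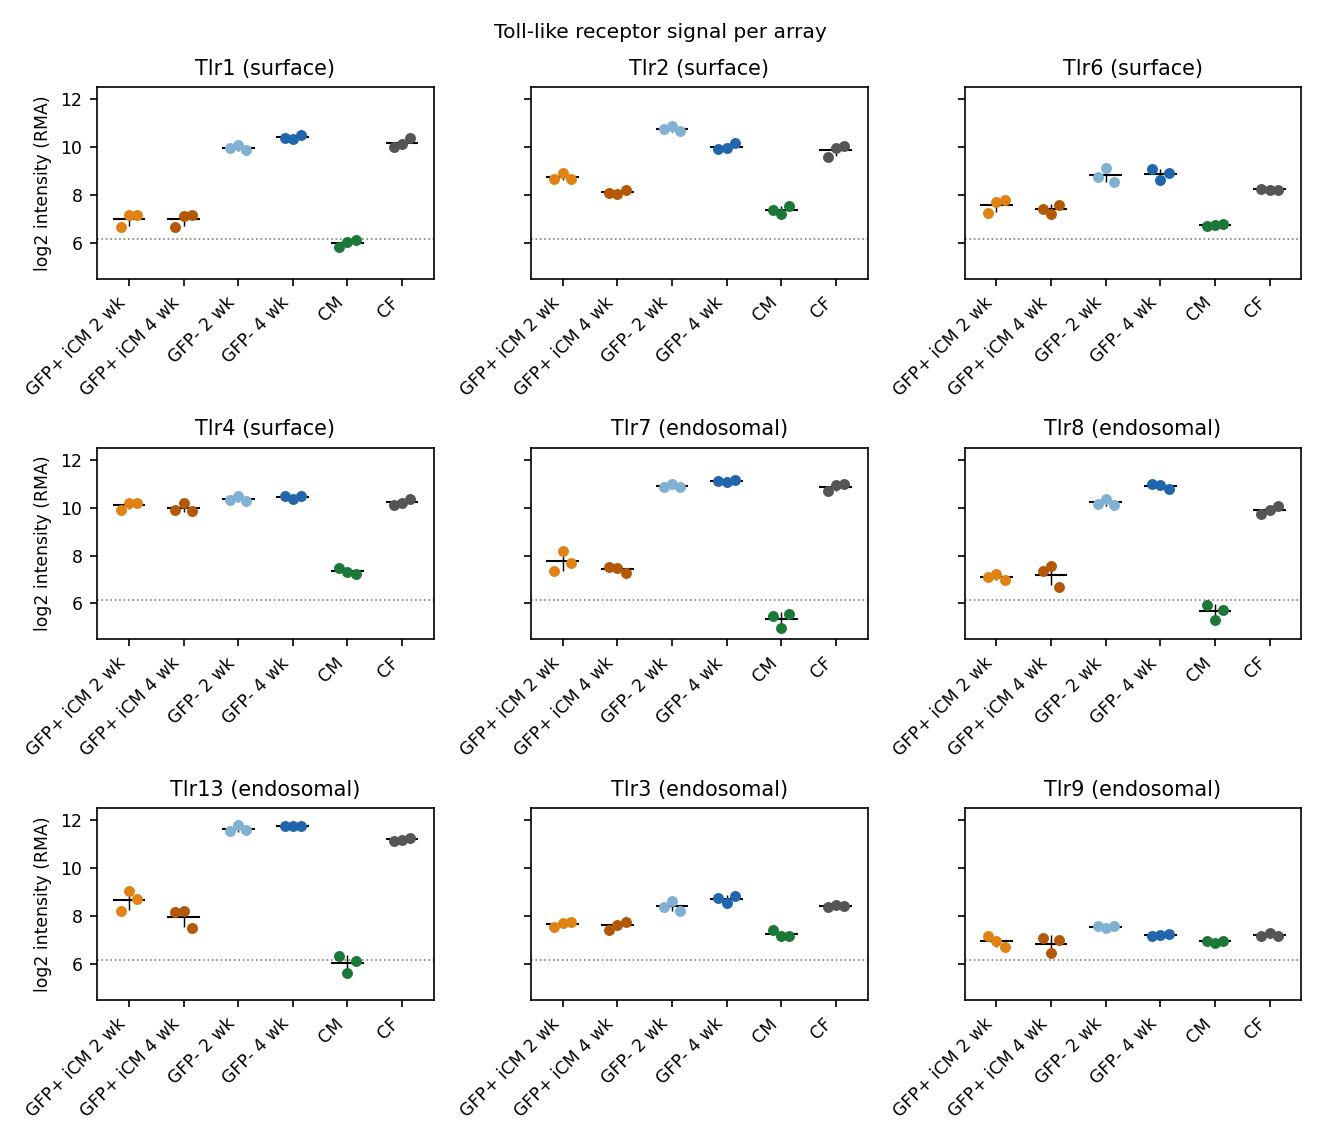
Signal of the 9 measured Toll-like receptors on each array (log2 intensity) in the 6 groups. Points are arrays, horizontal lines group means, vertical lines 1 SD (n = 3), and the dotted line is the background limit of 6.16 log2. Tlr1, Tlr7, Tlr8 and Tlr13 are low in iCMs, while Tlr4 in iCMs lies between 9.86 and 10.21, beside CF at 10.12 to 10.36.

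Tlr4 is the receptor for bacterial lipopolysaccharide. Its level was 9.91, 10.19 and 10.21 log2 in 2-week iCMs and 9.91, 10.19 and 9.86 in 4-week iCMs. It was 10.31, 10.47 and 10.29 in 2-week GFP- cells, 10.50, 10.37 and 10.47 in 4-week GFP- cells, 7.48, 7.32 and 7.22 in CM, and 10.12, 10.19 and 10.36 in CF. The iCM arrays overlapped those of CF at both times and lay far above those of CM. Against CF the difference was -0.12 ± 0.11 log2 at 2 weeks (95% confidence interval -0.35 to 0.10, limma adjusted p = 0.436). At 4 weeks it was -0.24 ± 0.11 log2 (interval -0.46 to -0.01, limma adjusted p = 0.112), which was called without 4-week iCM replicate 2 (-0.34, adjusted p = 0.0294) and with array weights (-0.31, adjusted p = 0.00257). Against CM, Tlr4 was higher by 2.76 ± 0.11 log2 in 2-week iCMs and by 2.64 ± 0.11 in 4-week iCMs (limma adjusted p = 7.42e-14 and 2.1e-13). CM itself was 7.37-fold lower than CF (-2.88 ± 0.11 log2, limma adjusted p = 1.45e-14).

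The distance that each receptor had moved from its CF mean to its CM mean was expressed in percent for the 8 members called between CM and CF. Tlr4 stood at 4.28% in 2-week iCMs and 8.28% in 4-week iCMs. The other 7 stood between 44.4% (Tlr2) and 75.6% (Tlr1) at 2 weeks, and between 55.3% (Tlr6) and 75.9% (Tlr1) at 4 weeks. For Tlr1, Tlr7, Tlr8 and Tlr13 the CM mean was not above background, so their percentages are approximate. The 21 macrophage markers called between CM and CF ran from 15.7% to 62.2% at 2 weeks (median 43.6%) and from 22.9% to 79.9% at 4 weeks (median 54.8%). For 4 of these markers too the CM mean was not above background, so their percentages are likewise approximate. Of the 448 genes called at least 4-fold lower in CM than in CF, 36 genes (8.04%) had moved less than Tlr4 in 2-week iCMs and 33 (7.37%) in 4-week iCMs; the comparison shares its CF arrays with the choice of these genes. Tlr4 was singled out after its values had been seen.

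Within each array, Tlr4 was set against every other member, which cancels differences that all genes of an array share. From CF to 2-week iCMs, the other members lost between 0.54 ± 0.11 log2 (Tlr6) and 3.05 ± 0.08 (Tlr1) more than Tlr4 did, with no overlap of arrays, except Tlr9 (0.14 ± 0.24, overlapping). At 4 weeks this ran from 0.57 ± 0.15 (Tlr3) to 3.20 ± 0.11 (Tlr7), again except Tlr9 (0.13 ± 0.31). For each of the 7 without overlap the two-sided exact permutation p was 0.1, the smallest that 3 against 3 arrays can give. Since Tlr4 was picked on these same arrays for its small difference, the direction of these contrasts was set by that choice. They describe the sizes and give no separate support for Tlr4 standing apart. Beside Tlr4, the 9 fibroblast markers averaged 8.74 log2 in 2-week and 8.25 in 4-week iCMs, against 10.11 in CM and 10.70 in CF. In GFP- cells they averaged 8.74 log2 at 2 weeks and 9.04 at 4 weeks. Their differences between iCMs and CF went both ways, from -5.26 to 2.07 log2 at 2 weeks and from -6.15 to 1.10 at 4 weeks. The part of fibroblast content in the Tlr4 levels was not tested.

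**Figure D2:**
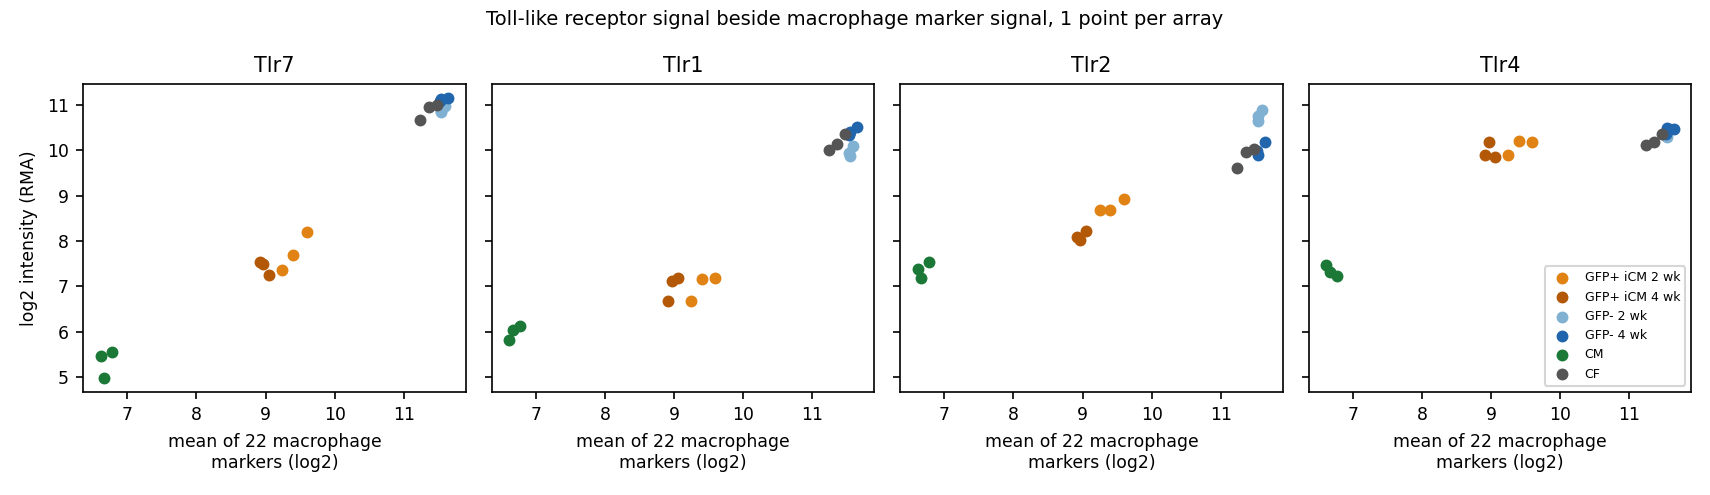
Signal of Tlr7, Tlr1, Tlr2 and Tlr4 (log2 intensity, vertical axis) beside the mean of 22 macrophage markers (log2, horizontal axis), 1 point per array. In iCMs the markers average 8.91 to 9.60, between CM and CF, and Tlr7, Tlr1 and Tlr2 likewise lie between them, whereas Tlr4 in iCMs (9.86 to 10.21) lies close to CF (10.12 to 10.36).

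Tlr2 recognises bacterial lipoproteins as a pair with Tlr1 or with Tlr6. Tlr1 gave 6.68, 7.18 and 7.16 log2 in 2-week iCMs and 6.67, 7.12 and 7.18 in 4-week iCMs. It gave 5.81, 6.04 and 6.12 in CM and 10, 10.15 and 10.37 in CF. No iCM array reached the CF arrays, and the difference was -3.17 ± 0.14 log2 at 2 weeks and -3.18 ± 0.14 at 4 weeks (limma adjusted p = 1.44e-12 and 9.12e-13). Tlr2 gave 8.68, 8.92 and 8.68 in 2-week iCMs, 8.09, 8.03 and 8.23 in 4-week iCMs, 7.38, 7.19 and 7.54 in CM, and 9.61, 9.97 and 10.03 in CF. Its groups did not overlap, and its differences from CF were -1.11 ± 0.12 and -1.75 ± 0.12 log2 (limma adjusted p = 3.35e-07 and 4.06e-10). Tlr6 differed less, by -0.66 ± 0.15 and -0.82 ± 0.15 log2 (limma adjusted p = 0.00164 and 0.00021), with 7.21 to 7.78 in iCMs against 8.22 to 8.25 in CF. Tlr1 and Tlr6 are close paralogs, and shared binding of their probes was not tested.

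The endosomal receptors differed widely in the size of their differences. Tlr7, which recognises single-stranded RNA, its neighbour Tlr8, and Tlr13, which recognises bacterial ribosomal RNA in mice, had large differences. Tlr7 gave 7.37, 8.21 and 7.70 log2 in 2-week iCMs, 7.54, 7.50 and 7.26 in 4-week iCMs, 5.47, 4.98 and 5.56 in CM, and 10.68, 10.95 and 11.00 in CF. It was 8.68-fold lower in 2-week iCMs and 10.9-fold lower in 4-week iCMs than in CF (limma adjusted p = 1.49e-11 and 2.25e-12). Tlr8 gave 7.12, 7.23 and 6.97 in 2-week iCMs and 7.34, 7.55 and 6.70 in 4-week iCMs, against 9.74, 9.90 and 10.07 in CF. Its differences were -2.80 ± 0.18 and -2.70 ± 0.18 log2. Tlr13 gave 8.23, 9.04 and 8.70 in 2-week iCMs and 8.17, 8.22 and 7.50 in 4-week iCMs, against 11.15, 11.19 and 11.27 in CF, with differences of -2.55 ± 0.19 and -3.24 ± 0.19 log2. For all 3, every iCM array lay below every CF array and above every CM array. Arrays without overlap were common. Against CF they were found for 45.2% of all genes in 2-week and 43.4% in 4-week iCMs, and against CM for 47.7% and 43.5%.

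Tlr3, the receptor for double-stranded RNA, differed by only -0.76 ± 0.11 and -0.81 ± 0.11 log2 (limma adjusted p = 1.89e-05 and 9.07e-06), with 7.44 to 7.76 in iCMs against 8.40 to 8.45 in CF. Tlr9, the receptor for DNA with unmethylated CpG, was dim in every group, with group means from 6.85 to 7.56 log2. Its 2-week difference was not called (-0.26 ± 0.13, limma adjusted p = 0.134), but was without 2-week iCM replicate 1 (-0.37, adjusted p = 0.0493), with loess and with array weights. The 4-week difference was called (-0.36 ± 0.13, limma adjusted p = 0.0388), but not without 4-week iCM replicate 2 (-0.17, adjusted p = 0.288) or without any 1 of the CF replicates (-0.32 to -0.39, adjusted p = 0.0626 to 0.134). The median difference from CF was -2.55 log2 for the endosomal and -0.89 for the surface receptors in 2-week iCMs, and -2.70 and -1.29 in 4-week iCMs, but Tlr1 on the surface side differed by -3.17 log2 at 2 weeks where Tlr7 differed by -3.12, and Tlr3 on the endosomal side by -0.76 where Tlr6 differed by -0.66.

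**Figure D3:**
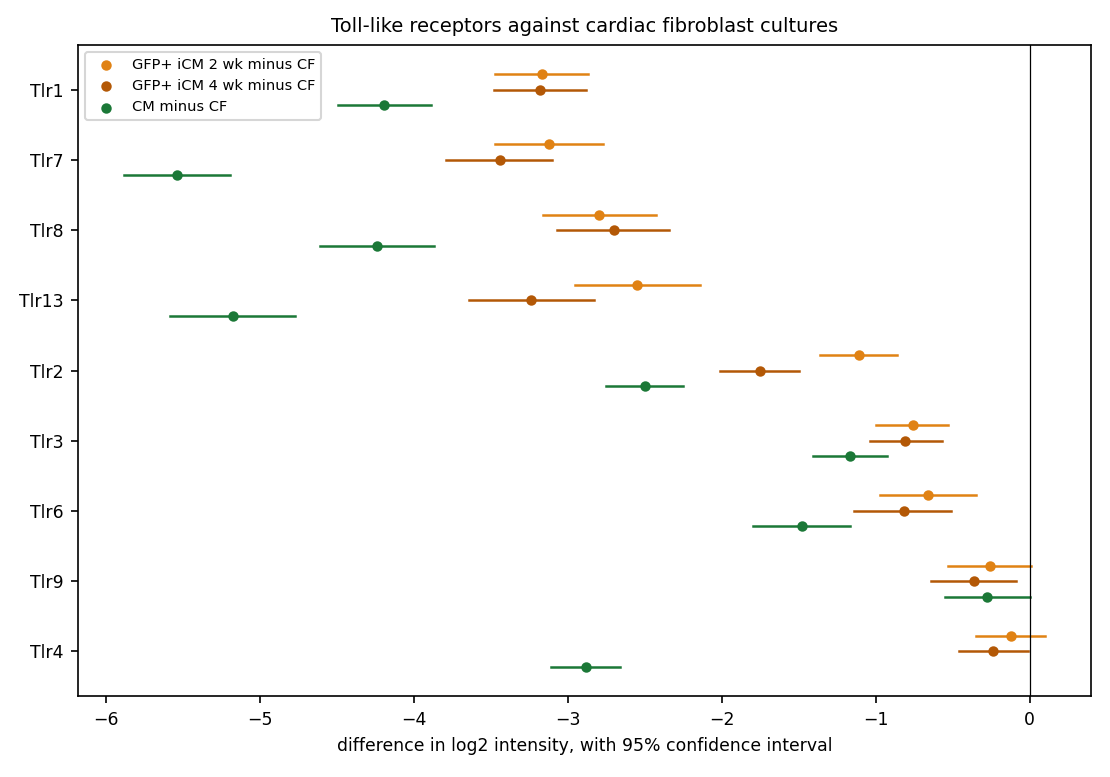
Difference in log2 intensity from CF for each receptor in 2-week iCMs, 4-week iCMs and CM, with 95% confidence intervals. In iCMs the differences run from -3.44 (Tlr7, 4 weeks) to -0.12 (Tlr4, 2 weeks), and Tlr4 is the member with a large CM difference (-2.88) and iCM differences near 0. The CM means of Tlr1, Tlr7, Tlr8 and Tlr13 were not above background, so their CM points are no exact differences.

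In CM, 8 of the 9 receptors were lower than in CF and none was higher, where 41.0% of all genes were called and 21.5% were lower. The members' median was -2.88 log2, and that of the macrophage markers, 21 of 22 of them lower, was -4.92. Tlr7 was at least 26.3-fold lower, Tlr13 at least 31.7-fold, Tlr1 at least 16.2-fold and Tlr8 at least 13.4-fold (limma adjusted p = 4.84e-16, 1.44e-14, 3.78e-15 and 7.61e-14). The CM means of these 4, at 5.34, 6.03, 5.99 and 5.66 log2, were not above background. With 7.03 log2 as the limit, the 95th percentile of 1026 olfactory receptor probe sets, the bounds were 14.4-fold for Tlr7, 18.1-fold for Tlr13, 8.85-fold for Tlr1 and 7.32-fold for Tlr8. Tlr2 (-2.50 ± 0.12), Tlr6 (-1.48 ± 0.15) and Tlr3 (-1.17 ± 0.11 log2) were also lower. Tlr9 was not called (-0.28 ± 0.13, limma adjusted p = 0.1), and passed with array weights, with either other normalization and in a fit of these groups alone.

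Set against CM, 8 of 9 receptors were higher in iCMs at both times, where 42.1% of all genes were called at 2 weeks (22.7% higher) and 35.1% at 4 weeks (19.0% higher). With a minimum of 1 log2 on the differences as measured, 5 members passed at 4 weeks, where 8.33% of all genes did. For Tlr1, whose CM mean was not above background, the measured difference was 1.01 log2 but the bound only 0.83. Besides Tlr4, the called differences at 2 weeks included 0.41 ± 0.11 log2 for Tlr3, the smallest of them, and at least 5.43-fold for Tlr13. At 4 weeks Tlr3 was again the least (0.36 ± 0.11), while Tlr13 was at least 3.36-fold and Tlr7 at least 2.42-fold higher. Tlr3 at 4 weeks was not called without CM replicate 2 or 3, or without iCM replicate 2 or 3 (0.29 to 0.34, adjusted p = 0.0506 to 0.0936). Of the macrophage markers 21 of 22 were higher than in CM at both times.

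In 2-week iCMs 8 of 9 receptors were lower than in 2-week GFP- cells, and in 4-week iCMs all 9 were lower than in 4-week GFP- cells. Of all genes 34.5% were called at 2 weeks (18.4% lower) and 34.2% at 4 weeks (17.1% lower). Tlr8, for example, had 7.12, 7.23 and 6.97 log2 in 2-week iCMs against 10.15, 10.38 and 10.13 in GFP- cells (-3.12 ± 0.18). At 4 weeks it had 7.34, 7.55 and 6.70 in iCMs against 11.00, 10.93 and 10.77 in GFP- cells (-3.70 ± 0.18). Tlr4 had the smallest difference at 2 weeks (-0.26 ± 0.11, limma adjusted p = 0.0728, not called). At 4 weeks Tlr4 was lower (-0.46 ± 0.11, adjusted p = 0.00199), and so was Tlr9 (-0.36 ± 0.13, adjusted p = 0.0379), whose call was lost without iCM replicate 2 (-0.16, adjusted p = 0.271), without any 1 of the GFP- replicates, with array weights or in a fit of these groups alone. Of the macrophage markers 22 of 22 were lower at 2 weeks and 21 at 4 weeks.

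In 2-week GFP- cells 2 of 9 members were higher than in CF and none was lower, where 22.7% of all genes were called, 13.8% higher and 8.93% lower. In 4-week GFP- cells again 2 were higher and none was lower, where 11.5% of all genes were called, 5.79% higher and 5.70% lower. At such shares a count of 0 lower among 9 says little about the receptors. With a minimum of 1 log2 no member passed, where 2.37% of all genes did at 2 weeks and 2.02% at 4 weeks. Tlr2 had 10.75, 10.90 and 10.66 log2 in 2-week GFP- cells against 9.61, 9.97 and 10.03 in CF (0.90 ± 0.12, limma adjusted p = 1.85e-05). Tlr6 was higher at 2 weeks (0.59 ± 0.15, adjusted p = 0.00699) and at 4 weeks (0.64 ± 0.15, adjusted p = 0.00652). Tlr8 was higher at 4 weeks (1.00 ± 0.18, adjusted p = 0.000557), which at 1.99-fold was just under the minimum of 1 log2. Every 4-week GFP- array of Tlr8 lay above every CF array. In that comparison arrays did not overlap for 30.3% of all genes. Of the macrophage markers 7 of 22 were higher at 2 weeks, and 5 were higher and 1 lower at 4 weeks. Endothelial markers averaged 8 log2 in 2-week and 8.72 in 4-week GFP- cells against 6.80 in CF, and 6 and 5 of 7 were higher. The part of either cell type was not tested.

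Between 2 and 4 weeks, 2 receptors were lower in 4-week than in 2-week iCMs, where 11.5% of all genes were called and 7.24% were lower. With a minimum of 1 log2 no member passed, where 0.507% of all genes did. Tlr2 differed by -0.64 ± 0.12 log2 (limma adjusted p = 0.00172) and Tlr13 by -0.69 ± 0.19 (adjusted p = 0.0249). The call of Tlr13 was lost without 2-week iCM replicate 2 (-0.50, adjusted p = 0.126) or 3 (-0.67, adjusted p = 0.0782) and without 4-week replicate 3 (-0.46, adjusted p = 0.147). Tlr7 was called only without 2-week iCM replicate 1 (-0.52, adjusted p = 0.0473) or with array weights (-0.45, adjusted p = 0.008). Of the macrophage markers 11 of 22 were lower, with a median of -0.44 log2. In GFP- cells 17.4% of all genes were called over the same interval, 7.16% higher and 10.2% lower, and 1.55% with a minimum of 1 log2, which no member passed. There Tlr8 (0.68 ± 0.18, adjusted p = 0.0116) and Tlr1 (0.45 ± 0.14, adjusted p = 0.0357) were higher and Tlr2 was lower (-0.74 ± 0.12, adjusted p = 0.000232). Tlr1 lost its call in 5 of the 6 fits that left out 1 of these arrays (0.40 to 0.49, limma adjusted p = 0.0594 to 0.126).

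The change over time in iCMs minus that in GFP- cells was called for 0 of 9 members by limma, where 3.94% of all genes were called. At an unadjusted p under 0.05 there were 5 members, Tlr1, Tlr3, Tlr7, Tlr8 and Tlr13, all with a negative difference, where 15.8% of all genes passed. The widest was that of Tlr13 (-0.81 ± 0.27 log2, unadjusted p = 0.00815, adjusted p = 0.117), which was called without 2-week iCM replicate 1 (-1.02, adjusted p = 0.0294). With array weights 6 members passed. Among the macrophage markers, 5 of 22 were called lower and 0 higher in the same contrast. Their median was -0.49 log2, beside -0.35 for the members.

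Tlr1, Tlr4, Tlr6, Tlr7, Tlr8, Tlr3 and Tlr13 had their highest mean in 4-week GFP- cells, but of these only Tlr8 differed from the next group by a called difference. Tlr2 and Tlr9 had theirs in 2-week GFP- cells, called against the next group for Tlr2 and not for Tlr9. Every member except Tlr9 had its lowest mean in CM, called against the next higher group. The 2 iCM groups were neighbours in the order for those 8, and were apart by a called difference for Tlr2 and Tlr13. For Tlr9 no pair of neighbours differed. From the lowest group mean, or the background limit where that was higher, to the highest, the range was at least 5.56 log2 for Tlr13, 4.96 for Tlr7, 4.74 for Tlr8 and 4.26 for Tlr1. It was 3.40 for Tlr2, 3.10 for Tlr4, 2.12 for Tlr6, 1.45 for Tlr3 and 0.71 for Tlr9.

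The genes outside the family with the most similar profile were found from the root mean square difference between centred means of the 6 groups, among all genes, with means below the background limit used as measured. For Tlr7 they were Ms4a6b (0.14 log2), Ms4a6c (0.17) and Hpgds (0.22), and for Tlr13 Cd48 (0.16), Ms4a6c (0.18) and Milr1 (0.20). Tlr1 was nearest to Nxpe5 (0.21), and Tlr8 to Gm6377 (0.21) and then Nxpe5 (0.23). Tlr2 was nearest to Gusb (0.14), Havcr2 (0.16) and Slc7a8 (0.17). For Tlr4 they were Myof (0.10), Plekho2 (0.15) and Pnp (0.15). Tlr6 was nearest to Acp2 (0.04) and Tlr3 to Eya4 (0.05), whose small values go with their narrow ranges. Within the family Tlr7 and Tlr13 were closest (0.18), while Tlr7 and Tlr4 were 1.47 apart. Tlr9 ranged over less than 1 log2 and was left out.

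Of 8 genes of co-receptors and accessory proteins, 0 were higher and 6 lower than in CF in 2-week iCMs (17.4% and 15.8% of all genes), and 1, Cd36, was higher and 6 lower in 4-week iCMs (14.3% and 15.2% of all genes). These shares of all genes also stand beside the lists that follow. Cd14, which hands lipopolysaccharide to Tlr4, gave 9.58, 10 and 9.73 log2 in 2-week iCMs, 8.27, 8.38 and 8.64 in 4-week iCMs, 6.40, 6.17 and 6.98 in CM and 11.55, 11.50 and 11.53 in CF. Its differences from CF were -1.76 ± 0.15 log2 at 2 weeks and -3.10 ± 0.15 at 4 weeks (limma adjusted p = 1.47e-08 and 2.62e-12), and the groups did not overlap. Ly96 (MD-2), the subunit of Tlr4 that binds lipopolysaccharide, gave 7.71, 8.48 and 8.37 in 2-week iCMs, 8.56, 8.90 and 8.51 in 4-week iCMs, and 9.28, 9.37 and 9.64 in CF. Ly96 was lower (-1.24 ± 0.18 and -0.77 ± 0.18, limma adjusted p = 1.07e-05 and 0.00168) where Tlr4 was not called. Cd180, a relative of Tlr4 (-2.53 ± 0.12 log2 in 2-week iCMs), and its partner Ly86 (-2.84 ± 0.19) had the widest differences of the list at 2 weeks.

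Among chaperones and trafficking proteins, 0 were higher and 5 of 7 lower than in CF in iCMs at both times. Unc93b1, which carries the endosomal receptors out of the endoplasmic reticulum, gave 7.92, 8.02 and 7.81 log2 in 2-week iCMs, 7.71, 7.47 and 7.43 in 4-week iCMs, 7.28, 7.28 and 7.31 in CM, and 9.51, 9.85 and 9.76 in CF. Its iCM arrays lay between those of CM and CF (-1.79 ± 0.10 and -2.17 ± 0.10 against CF). Cnpy3, a folding partner of several receptors, differed by -0.27 ± 0.07 and -0.31 ± 0.07 log2 (limma adjusted p = 0.00615 and 0.00248). Of 5 proteases that act in endosomes, where they can cleave receptors, 3 were lower at both times and 1 was higher at 2 weeks. Legumain (Lgmn, -1.33 ± 0.09 in 2-week iCMs) and cathepsin S (Ctss, -1.18 ± 0.12) differed the most there, and in CM Ctss differed from CF by -5.21 ± 0.12 log2.

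The signalling genes were split. Of 6 adaptors, 3 were lower than in CF in 2-week iCMs and 4 in 4-week iCMs, and none was higher. Myd88 gave 8.71, 8.76 and 8.64 log2 in 2-week iCMs and 9, 8.52 and 8.38 in 4-week iCMs, against 9.47, 9.55 and 9.32 in CF (-0.74 ± 0.12 and -0.81 ± 0.12). Ticam2, the bridge from Tlr4 to Ticam1, was lower (-0.82 ± 0.11 and -0.67 ± 0.11), while Ticam1 was not called (0.15 ± 0.11 and 0.13 ± 0.11). Pik3ap1, an adaptor to PI3-kinase, had the widest adaptor difference (-2.10 ± 0.12 and -2.25 ± 0.12). Of 14 kinases and ubiquitin ligases, 2 were higher and 6 lower at both times, where 33.3% of all genes were called at 2 weeks and 29.5% at 4 weeks. Btk, a kinase of myeloid and B cells, led them (-2.36 ± 0.13 and -2.84 ± 0.13), and Map3k7 (TAK1) was higher at 2 weeks (0.44 ± 0.10).

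Of 11 transcription factors, 2 were higher and 5 lower than in CF in 2-week iCMs, and 0 higher and 5 lower in 4-week iCMs. Spi1, the gene of PU.1, gave 7.49, 7.54 and 7.76 log2 in 2-week iCMs, 7.31, 7.59 and 7.25 in 4-week iCMs, 6.61, 6.58 and 7.10 in CM, and 9.34, 9.65 and 9.52 in CF. Its iCM arrays lay below all CF arrays and above all CM arrays (-1.91 ± 0.14 and -2.12 ± 0.14 against CF). Irf8 (-1.54 ± 0.13 and -1.55 ± 0.13) and Irf5 (-0.94 ± 0.12 and -1.01 ± 0.12), interferon regulatory factors of myeloid cells, were lower too. The broadly expressed Rela and Irf3 were not called in iCMs (-0.03 ± 0.09 and 0.24 ± 0.10 at 2 weeks, limma adjusted p = 0.858 and 0.081). Other factors of the list did not follow such a split. Jun averaged 9.42 log2 in 2-week and 9.20 in 4-week iCMs against 10.14 in CF, and Fos 9.01 and 8.92 against 9.33. Irf7, an interferon regulatory factor, averaged 7.73 and 7.50 in iCMs against 7.29 in CF. Of 11 inhibitors, 1 was higher and 1 lower at 2 weeks and 3 were lower at 4 weeks, which is not above the shares of all genes called (33.3% and 29.5%). Tollip, which binds receptor complexes and damps them, was not called (0.23 ± 0.10 and 0.22 ± 0.10).

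**Figure D4:**
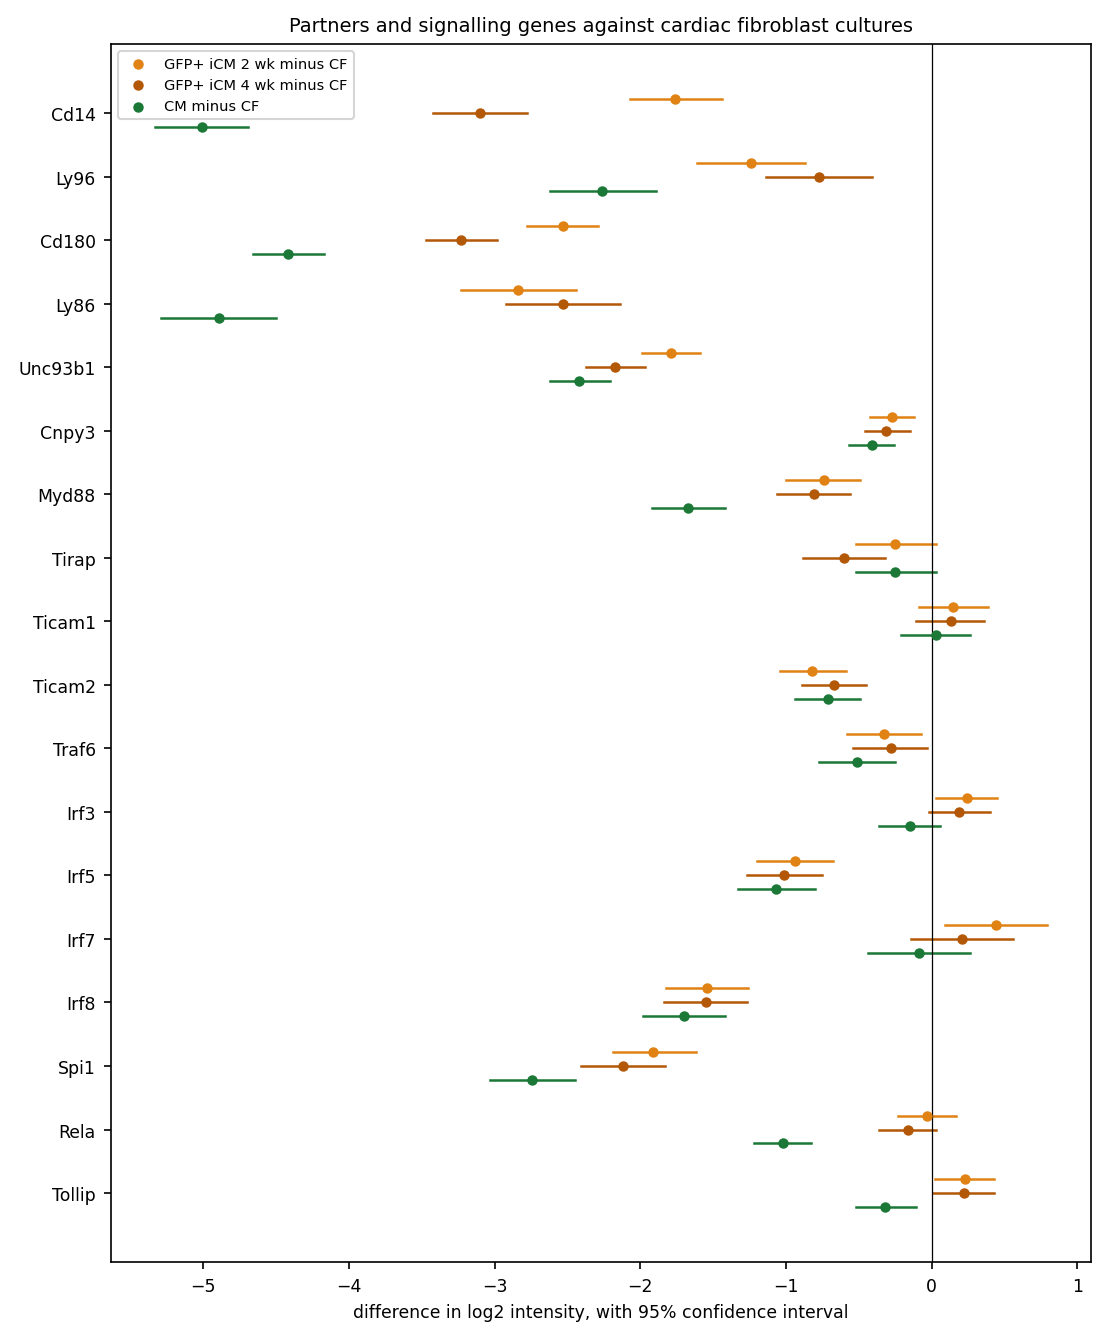
Difference in log2 intensity from CF of 18 partner and signalling genes in 2-week iCMs, 4-week iCMs and CM, with 95% confidence intervals. Cd14, Cd180, Ly86, Unc93b1, Irf8 and Spi1 lie far below 0 in iCMs, while Ticam1 (0.15 at 2 weeks) and Rela (-0.03) lie near 0.

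Genes that receptor signalling is known to induce did not all move one way. Of 23 such targets, 2 were higher and 7 lower than in CF in 2-week iCMs, and 1 higher and 10 lower in 4-week iCMs. That is 9 of 23 called at 2 weeks, near the 33.3% of all genes. The 7 of 23 lower at 2 weeks stand beside 15.8% of all genes lower. At 4 weeks the 10 of 23 lower stand beside 15.2% of all genes lower, where 29.5% were called in either direction. The co-stimulatory molecule Cd86 (-2.39 ± 0.14), the chemokine Ccl3 (-2.28 ± 0.11) and the cytokines Il1b (-2.24 ± 0.20) and Il6 (-2.07 ± 0.19) had the widest differences at 2 weeks. Saa3, an acute phase gene, was at least 51-fold lower in CM than in CF (5.83, 5.69 and 5.75 against 11.72, 11.81 and 11.96) but was not called in iCMs against CF (0.20 ± 0.20 at 2 weeks and 0.11 ± 0.20 at 4 weeks, limma adjusted p = 0.489 and 0.771). Il10, an anti-inflammatory cytokine named after its values were seen, gave 7.95, 7.49 and 8.10 log2 in 2-week iCMs and 7.64, 7.94 and 8.16 in 4-week iCMs, against 5.84, 6.29 and 6.66 in CF. Il10 was higher in iCMs than in CF by 1.58 ± 0.19 log2 at 2 weeks and 1.65 ± 0.19 at 4 weeks (limma adjusted p = 1.64e-06 and 8.84e-07). Its CF mean of 6.27 log2 lay near background, below the olfactory receptor limit of 7.03. In GFP- cells Il10 averaged 6.68 log2 at 2 weeks and 7.61 at 4 weeks. The 4-week GFP- arrays (7.49 to 7.83) overlapped those of 4-week iCMs.

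In GFP- cells the targets moved in both directions against CF, with 8 higher and 2 lower at 2 weeks and 7 higher and 1 lower at 4 weeks. Of all genes 13.8% were higher and 8.93% lower at 2 weeks, and 5.79% higher and 5.70% lower at 4 weeks. Il6 was lower at 2 weeks (-2.22 ± 0.19), whereas the chemokine Cxcl2 (1.49 ± 0.14) and the macrophage enzyme Acod1 (1.45 ± 0.21) were higher. The cytokine Il1a, whose CF mean was not above background, was at least 1.82-fold higher at 2 weeks and at least 2.31-fold higher at 4 weeks. At 4 weeks the chemokine Ccl5 (2.64 ± 0.32) had the widest difference. Of the 11 inhibitors, 7 were higher at 2 weeks and 4 at 4 weeks, and none was lower. Tnfaip3 (A20), which edits ubiquitin on signalling complexes, was higher by 1.13 ± 0.11 and 1.26 ± 0.11 log2. Cd36, a fatty acid transporter and co-receptor of Tlr2, gave 10.46, 10.39 and 10.31 in 2-week and 11.93, 11.84 and 11.91 in 4-week GFP- cells, against 6.89, 7.16 and 7.65 in CF (3.15 ± 0.16 and 4.66 ± 0.16). Cd36 also gave 12.12, 12.27 and 12.24 in CM. Endothelial markers, which averaged 8.89 log2 in CM, were higher in the same groups, and their part in the Cd36 difference was not tested.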

How the data were processed

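The authors deposited log2 intensities, 1 for each probe set and array, made with RMA per the submitters' processing notes. RNA was isolated with a PicoPure kit and labelled with a MessageAmp II-biotin kit, per the labels' protocols. RMA's version and the genome build are not given in the sources used here. RMA equalises the arrays' distributions, so a shift shared by all genes would not show. Gene names came from GEO's platform annotation. Of 28682 probe sets, 21755 named 1 gene, 1592 several and 5335 none. Single-gene probe sets were used, with the highest mean over 18 arrays where a gene had several (997 genes), which left 19912 genes.

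A model with group as the only term was fitted to all genes by lmFit and eBayes of limma 3.58.1 under R 4.3.3, and 16 comparisons were drawn, 4 of them only to order group means. Tests were two-sided, with p-values adjusted within each comparison over all genes. The script was tested on simulated data. Array medians ran from 7.32 to 7.44 log2. Named genes were all members, up to 4 of each other list with the largest absolute difference in the comparison described, and 24 anchor genes. The members and lists were chosen with earlier results of these data known. Sequences came from RefSeq (GRCm38.p6). Alternatives were quantile and cyclic loess normalization, array weights, an intensity trend, dim genes left out, all single-gene probe sets, the compared groups alone, a minimum of 1 log2, a replicate block and each array left out.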

Additional observations from a re-analysis of the deposited data

How the results depend on the processing

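The counts of receptors called in iCMs or CM against CF, and in iCMs against GFP- cells, kept within 1.5 times of the reported ones under every alternative except a minimum difference of 1 log2. That minimum left 5 members in 4-week iCMs against CF (8 reported) and 5 against CM (8 reported), and 0 in 2-week GFP- cells against CF, in 4-week GFP- cells against CF, and over time in iCMs and in GFP- cells. Against CM the minimum was applied to differences as measured, where the bound for Tlr1 was 0.83 log2. In a fit of the compared groups alone, 4 members were called in 2-week GFP- cells against CF (2 reported) and 1 in 4-week against 2-week iCMs (2 reported). With array weights 4 were called over time in iCMs (2 reported), 5 over time in GFP- cells (3 reported) and 6 for the difference between these changes (0 reported). Leaving out 1 array gave 1 to 3 over time in iCMs and 0 to 1 for the difference of changes. Same-numbered arrays correlated at -0.30 to 0.45 after group means were removed, and no comparison had every pair over 0.1. Between 4-week and 2-week iCMs these correlations ran from 0.08 to 0.45. So few arrays cannot decide whether the numbers pair the samples, and the main fit did not use them. With a replicate block the count of members called was as reported in all 12 comparisons (7 in 2-week iCMs and 8 in 4-week iCMs against CF).

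No called difference changed sign. Of those not called, the following changed sign (log2 values under the alternative). Over time in iCMs they were Tlr1 (0.02 with loess, -0.17 to 0.15 without 1 array), Tlr8 (-0.14 with weights, -0.09 to 0.34 without 1 array), Tlr9 (0.16 with weights, -0.22 to 0.10 without 1 array) and Tlr3 (-0.12 to 0.04 without 1 array). Over time in GFP- cells it was Tlr6 (-0.08 to 0.21 without 1 array). Against CF they were Tlr7 in 2-week GFP- cells (-0.03 with weights, -0.03 with loess, -0.01 with quantile, -0.07 to 0.09 without 1 array), Tlr3 there (-0.12 to 0.08 without 1 array) and Tlr9 in 4-week GFP- cells (0.04 with loess and with quantile, 0.00 to 0.04 without 1 array). Against CM it was Tlr9, in 2-week iCMs (-0.14 with weights, -0.09 to 0.13 without 1 array) and in 4-week iCMs (0.02 with weights, -0.20 to 0.11 without 1 array). The causes were not tested. With 7.03 log2, the 95th percentile of 1026 olfactory receptor probe sets, as the background limit, 10 in place of 4 of the 54 group means were not above background, among them Tlr1 in iCMs. The bounds of CM against CF fell to 14.4-fold for Tlr7 (26.3 reported), 18.1 for Tlr13 (31.7), 8.85 for Tlr1 (16.2) and 7.32 for Tlr8 (13.4). Those of iCMs against CM fell to 3.09-fold for Tlr13 at 2 weeks (5.43 reported), and at 4 weeks to 1.91 for Tlr13 (3.36) and 1.32 for Tlr7 (2.42), and Tlr1 was below the limit in both iCMs and CM.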

Other observations

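Tlr12, measured but not on the family list, lay between 5.98 and 6.72 log2 on all arrays, close to the background limit. Dendritic cell markers averaged 6.77 to 7.13 log2 and neutrophil and mast cell markers 6.21 to 6.54 log2 over the 6 groups. Single markers could differ more than these means. Dendritic cell markers differed from CF by -0.06 to 2.06 log2 in 4-week GFP- cells. Neutrophil and mast cell markers differed from CF by -1.17 to 0.86 log2 in CM.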
